A study of Homo sapiens with 6 samples.

Results

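The SOX transcription factors of the neural lineage were examined in human iPSC aggregates grown with and without 2 medium additives, PEG (polyethylene glycol) and HS (heparin sodium salt). They comprise 10 genes, chosen by symbol and taken from the 19977 genes that each library lists: SOX1, SOX2 and SOX3 (SOXB1), SOX21 (SOXB2), SOX4, SOX11 and SOX12 (SOXC), and SOX8, SOX9 and SOX10 (SOXE). All cells were NCRM-1, an established human iPSC line of wild type genotype, dissociated with TrypLE and cultured for 4 days as suspension aggregates in vertical wheel bioreactors, with 50% of the medium renewed on day 2. The comparison asks whether the additives alter the transcripts that accompany pluripotency and early differentiation. PEG and HS libraries, also called treated (n = 3), came from E8, a defined pluripotent stem cell medium, with 10 mg/ml PEG and 0.1 µg/ml HS, and E8 control libraries (n = 3) from E8 without additives. The treatment text of the labels describes PEG and heparin for all 6 libraries, and the grouping here rests on the treatment listed per library. The labels name a single bioreactor letter per medium, so the replicates may be samples of the same vessel. Medium and vessel would then not be separable (they cannot be told apart), and the p-values measure only the spread between these samples.

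SOX proteins bind the minor groove of DNA through an HMG box and usually act with partner factors. SOXB1 proteins are activators that keep neural progenitors undifferentiated, and SOX2 also pairs with OCT4 in pluripotent cells. SOX21 is a repressor that counteracts SOXB1 activity, SOXC proteins accompany neuronal differentiation, and SOXE proteins act in neural crest and glia.

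Depth was 26991279 to 36185138 counts on genes per library. Libraries of the same medium correlated at 0.991 to 0.992 (Pearson's r over genes, on log2 CPM; genes are not independent replicates) and libraries of different media at 0.986 to 0.988. No library stood apart. Levels are given as CPM, counts scaled to library size with TMM factors, a unit that keeps the effect of gene length. Levels of different genes are compared only as CPM per kilobase of exon. log2 fold changes are PEG and HS over E8 control, and their 95% intervals come from edgeR's quasi-likelihood fit over 16505 genes. A gene is called when its adjusted p (Benjamini-Hochberg over all genes tested) is under 0.05. The label is that of a pluripotent cell, and all 12 fixed pluripotency markers had a mean of at least 1 CPM. That mark is low, since 22 of the 31 neural plate and progenitor genes listed below also reached it. The 12 markers summed to 10518 to 10721 CPM in treated and 10503 to 10692 CPM in control libraries. These near sums held changes in opposite directions, since 9 of the 12 markers were called, 5 higher (NANOG with a log2 fold change of 0.55) and 4 lower (PODXL with -0.41 and LIN28A with -0.30). These markers are named after their values were seen, and over all genes tested 25.3% were called.

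All 10 SOX genes passed the filter on low counts, and 9 were called, of which 3 rose and 6 fell with PEG and HS. Over all genes tested 25.3% were called, 12.2% higher and 13.1% lower. The members were chosen with earlier results of these data known, so shares over all genes are set beside them as description only. The SOXB genes fell together, SOX21 and SOX1 most, whereas the SOXC and SOXE genes split between rises and falls. Control and treated libraries were separate for each of the 10 genes, against 39.3% of genes tested. A fall of over 2-fold was reached by 2 members, SOX21 and SOX1, against 1.78% of genes tested, and one of over 1.5-fold by 3, SOX2 included, against 3.6%. SOX2, at 1.51-fold, lay at this cut and fell short of it in some alternatives, such as without E8 control replicate 2 (log2 fold change -0.574). In the bulk RNA used here, fewer cells that express a gene and less RNA per cell cannot be told apart. Each exact permutation test of a member's CPM gave p = 0.1, the smallest that 3 libraries against 3 allow.

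**Figure D1:**
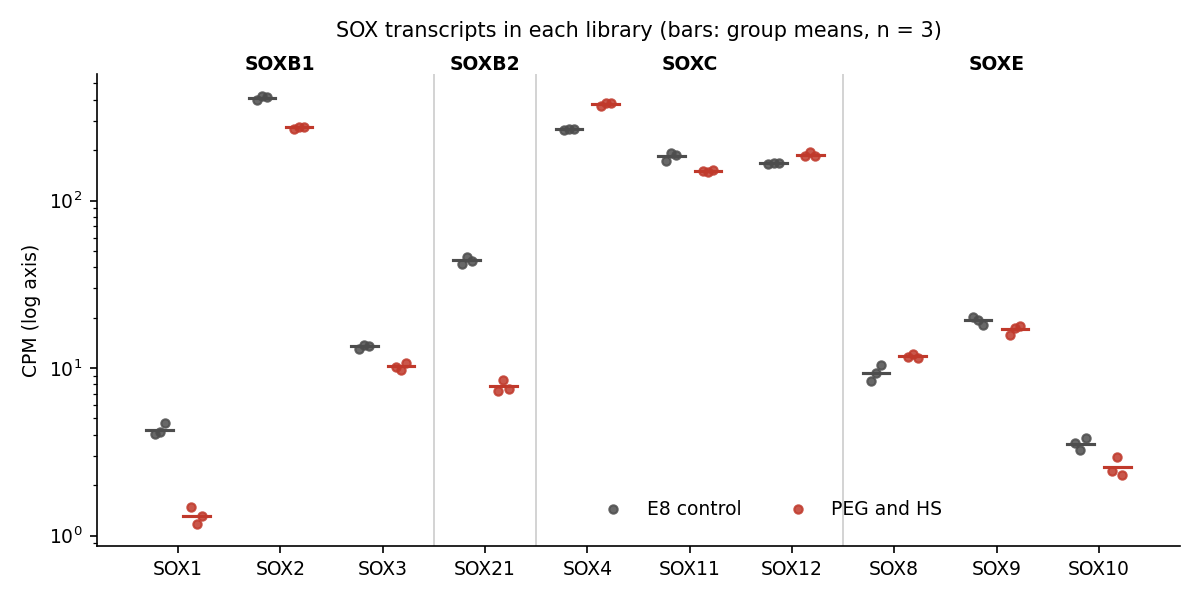
CPM of the 10 SOX transcripts (log axis) in each library, 3 in E8 control (grey) and 3 in PEG and HS (red), with bars at the group means. SOX21 fell from 43.9 to 7.76 CPM, and SOX4 rose from 266 to 377 CPM.

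SOX2 was the most abundant SOX transcript per kilobase and fell by a modest amount in PEG and HS. The gene has a single exon (chr3:181711925-181714436 of GRCh38, plus strand) inside the long noncoding gene SOX2-OT, with which it shares no exon base. Its level was 399, 423 and 413 CPM in the E8 control replicates and 269, 275 and 276 CPM in the PEG and HS replicates. The highest treated library therefore lay well under the lowest control library. SOX2 was 1.51-fold lower, with a 95% interval of -0.65 to -0.53 for the log2 fold change of -0.59 and an edgeR adjusted p of 4.79e-10.

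SOX1, among the earliest genes switched on in the neural plate, is also a single-exon gene (chr13:112067149-112071706, plus strand). It was scarce in both media, with 109, 135 and 169 counts in E8 control and 50, 33 and 44 counts in PEG and HS. These are 4.04, 4.16 and 4.68 CPM in E8 control and 1.48, 1.17 and 1.30 CPM in PEG and HS. SOX1 was 3.25-fold lower, with an interval of -2.02 to -1.38 on the log2 scale and an edgeR adjusted p of 6.51e-07. Its interval was the widest of the 10 genes, and its counts summed over the 6 libraries were the fewest. SOX3, the X-linked member (chrX:140502985-140505069, minus strand), is needed in the developing pituitary and hypothalamus. Its replicates had 13.05, 13.79 and 13.50 CPM in E8 control and 10.2, 9.73 and 10.8 CPM in PEG and HS. SOX3 fell 1.31-fold (log2 fold change -0.39, interval -0.53 to -0.25, edgeR adjusted p of 0.000439), so all 3 SOXB1 genes were lower by different amounts. The intervals of SOX1 and SOX3 do not overlap, and the difference between these genes was not tested.

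SOX21 showed the largest fall of the 10 genes and ranked 83 from the lowest log2 fold change among the 16505 genes tested. It lies on the minus strand (chr13:94709622-94712545, a single exon), and the antisense gene SOX21-AS1 overlaps its span without sharing exon bases. SOX21 counts were 1129, 1497 and 1578 in the E8 control replicates and 247, 240 and 253 in the PEG and HS replicates. Scaled for depth, the control replicates had 41.8, 46.1 and 43.7 CPM and the treated replicates 7.32, 8.49 and 7.48 CPM. SOX21 was 5.68-fold lower in PEG and HS, with an interval of -2.64 to -2.37 around a log2 fold change of -2.51 and an edgeR adjusted p of 4.92e-13. With SOX1 it was the only member still called when the test was set against a 1.5-fold change in place of no change (edgeR's glmTreat, adjusted p of 6.83e-12 for SOX21 and 3.54e-05 for SOX1).

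The 250 bases before the annotated start of SOX2 and of SOX21 are shown because both genes fell, the first from the highest level per kilobase and the second by the largest fold. They are RefSeq sequences of GRCh38.p14, written 5′ to 3′ on the gene's strand (chr3:181711675-181711924, plus, for SOX2 and chr13:94712546-94712795, minus, for SOX21). Capitals mark every match, on either strand, to CCAAT, to TATAAA, to the octamer ATGCAAAT, to the SOX-type word ACAAAG, or to the related SOX-type word AACAAT.
SOX2: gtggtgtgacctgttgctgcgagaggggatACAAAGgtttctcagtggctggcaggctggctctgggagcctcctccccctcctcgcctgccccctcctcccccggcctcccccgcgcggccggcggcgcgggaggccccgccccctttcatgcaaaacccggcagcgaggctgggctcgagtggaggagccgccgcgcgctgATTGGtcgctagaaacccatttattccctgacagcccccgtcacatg
SOX21: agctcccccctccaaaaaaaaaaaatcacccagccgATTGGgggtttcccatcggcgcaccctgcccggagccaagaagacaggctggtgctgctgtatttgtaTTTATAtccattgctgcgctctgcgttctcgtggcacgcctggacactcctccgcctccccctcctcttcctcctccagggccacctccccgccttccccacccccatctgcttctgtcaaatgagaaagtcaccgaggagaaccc
SOX2 has a CCAAT word on the minus strand that begins 47 bases before the start and an ACAAAG word at 220 bases. In SOX21 the CCAAT word lies at 214 bases and a TATAAA word at 146 bases, both on the strand opposite to the gene. CCAAT or its reverse complement was found in 32.0% of the 35116 RefSeq promoter windows of this length, ACAAAG in 13.7% and TATAAA in 10.7%. G and C made up 68.8% of the SOX2 window and 58.8% of the SOX21 window, against a median of 58.0% over all windows. A matching word describes the sequence and is no evidence of binding.

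**Figure D2:**
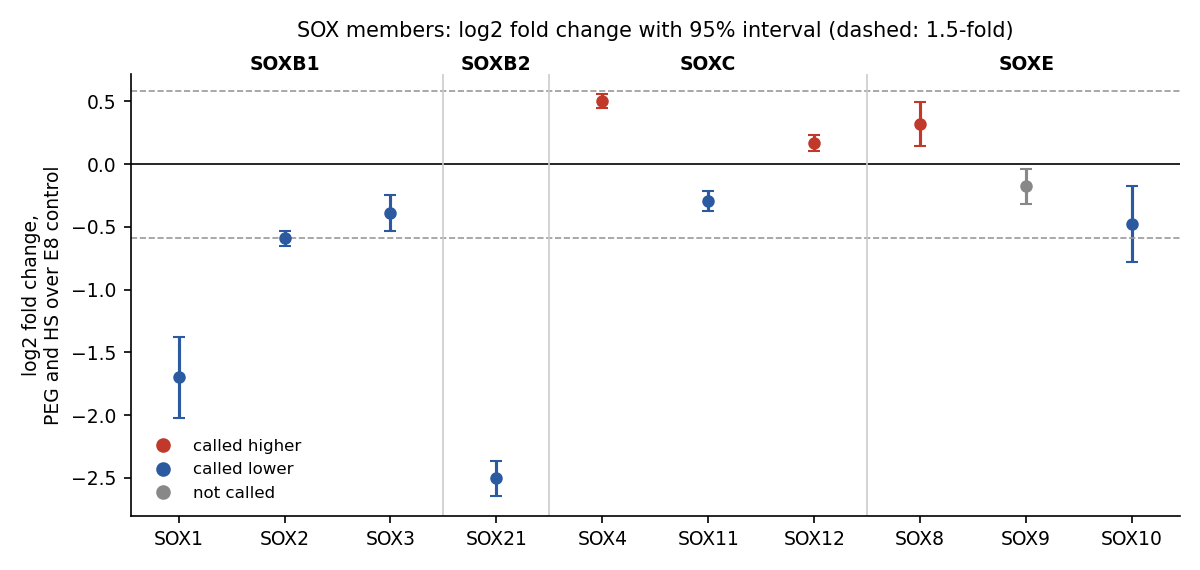
log2 fold change of each SOX gene in PEG and HS over E8 control with its 95% interval, coloured by call, with dashed lines at 1.5-fold. SOX21 (-2.51) and SOX1 (-1.70) lie apart from the other 8 genes, which lie between -0.59 and 0.50.

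The SOXC genes, which share their role in neuronal maturation and are also widely used in embryonic tissue, did not move together. SOX4 and SOX12 rose and SOX11 fell. SOX4 (chr6:21593751-21598619, plus strand, single exon) had 265, 266 and 267 CPM in the E8 control replicates and 368, 381 and 381 CPM in the PEG and HS replicates. It was 1.42-fold higher, the largest rise of the family (log2 fold change 0.50, interval 0.45 to 0.56, edgeR adjusted p of 1.38e-09). A total of 168 bases, 3.45% of the SOX4 exon, are shared with an antisense gene, which was not tested here.

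SOX12 (chr20:325552-330224, plus strand, single exon) overlaps in function with the other SOXC genes. Control replicates had 166, 167 and 167 CPM and treated replicates 183, 196 and 183 CPM. The rise was small, 1.12-fold (log2 fold change 0.17, interval 0.10 to 0.23, edgeR adjusted p of 0.000894), with SDs of 7.40 CPM in treated and 0.538 CPM in control libraries. SOX11 (chr2:5692384-5701385, plus strand, single exon) drives pan-neuronal genes in the embryonic nervous system. It had 173, 192 and 186 CPM in E8 control against 150, 148 and 153 CPM in treated libraries, and was 1.22-fold lower (log2 fold change -0.29, interval -0.37 to -0.22, edgeR adjusted p of 2.08e-05).

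The promoter windows of SOX4 and SOX12 are given as the counterparts that rose (RefSeq, GRCh38.p14, plus strand, chr6:21593501-21593750 and chr20:325302-325551), with the same words in capitals.
SOX4: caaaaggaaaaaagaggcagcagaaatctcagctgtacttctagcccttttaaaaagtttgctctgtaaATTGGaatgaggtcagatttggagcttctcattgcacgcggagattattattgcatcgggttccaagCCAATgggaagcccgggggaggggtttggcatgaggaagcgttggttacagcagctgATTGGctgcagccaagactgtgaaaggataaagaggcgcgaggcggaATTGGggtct
SOX12: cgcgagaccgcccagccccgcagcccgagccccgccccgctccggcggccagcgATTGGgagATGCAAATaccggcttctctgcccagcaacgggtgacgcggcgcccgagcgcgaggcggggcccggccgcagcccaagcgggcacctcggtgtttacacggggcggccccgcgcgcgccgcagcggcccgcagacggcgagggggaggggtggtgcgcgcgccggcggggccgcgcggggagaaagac
SOX4 carries 4 CCAAT words, one on the plus strand 114 bases before the start and 3 on the minus strand, the nearest at 10 bases. SOX12 has a CCAAT word at 196 bases and, at 188 bases, the full octamer ATGCAAAT, which was found in 1.63% of all windows. Octamers are bound by POU factors. Of the 6 members with a RefSeq window (SOX1, SOX2, SOX3, SOX21, SOX4 and SOX12), 5 had CCAAT, with SOX1 the exception, and none had AACAAT, present in 8.98% of windows. GGGCGG, the GC box, was searched as well but not set in capitals, and was found in 3 of the 6 and in 42.6% of all windows. The windows also differed in base composition, from 48.8% G and C in SOX4 to 82.0% in SOX1.

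Among the SOXE genes SOX8 rose and SOX10 fell, and SOX9 did not pass the test. SOX8 (chr16:981770-986979, plus strand, 3 exons), a neural crest and oligodendrocyte gene, had 8.38, 9.30 and 10.5 CPM in the E8 control replicates and 11.7, 12.2 and 11.5 CPM in the PEG and HS replicates. It was 1.25-fold higher, with an interval of 0.15 to 0.49 and an edgeR adjusted p of 0.00900. SOX9 (chr17:72121020-72126416, plus strand, 3 exons), needed in cartilage, neural stem cells and crest, had 20.2, 19.4 and 18.1 CPM in E8 control and 15.8, 17.3 and 17.9 CPM in PEG and HS. The groups were separated by a narrow margin, and the interval of its log2 fold change was -0.32 to -0.04 with an edgeR adjusted p of 0.0578. Without PEG and HS replicate 3 this became 0.0393, and without E8 control replicate 3 it became 0.0372. With any other library left out it lay between 0.0887 and 0.238, and DESeq2 gave an adjusted p of 0.117. SOX9 was called in 6 of the 16 alternatives other than the 1.5-fold null.

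SOX10 (chr22:37970686-37987422, minus strand, 4 exons), a defining gene of migrating crest, Schwann cells and oligodendrocytes, was counted 96, 106 and 137 times in E8 control and 82, 83 and 78 times in PEG and HS. These counts are 3.558, 3.263 and 3.797 CPM in E8 control and 2.43, 2.94 and 2.30 CPM in PEG and HS. SOX10 was 1.39-fold lower, with an interval of -0.78 to -0.17 and an edgeR adjusted p of 0.0223. The call was lost with DESeq2 (adjusted p of 0.0627) and without PEG and HS replicate 1 (edgeR, 0.0787), PEG and HS replicate 3 (0.0838), E8 control replicate 1 (0.0515) or E8 control replicate 3 (0.0858). SOX10 exons share 260 bases, 5.39% of their length, with POLR2F on the opposite strand, and the use of strand in counting is not given in the sources used here. POLR2F, a subunit of RNA polymerases, averaged 43.8 ± 1.03 CPM (SD, n = 3) in treated and 43.4 ± 0.990 CPM (SD, n = 3) in control libraries. Across the 10 members, at most 3.79% of the 31-base words of a transcript (SOX2) also occur in transcripts of another gene.

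Per kilobase of exon, E8 control ranked SOX2 highest at 164 ± 4.70 (SD, n = 3) CPM per kilobase, followed by SOX4 at 54.7 ± 0.241, SOX12 at 35.7 ± 0.115 and SOX11 at 20.4 ± 1.11. SOX21 was the fifth at 15.0 ± 0.725, ahead of SOX3, SOX9, SOX8, SOX1 and SOX10, the last at 0.733 ± 0.0554. No neighbours in this control order had overlapping libraries. In PEG and HS the leading 4 kept their places, with SOX2 at 109 ± 1.56, SOX4 at 77.4 ± 1.54, SOX12 at 40.1 ± 1.58 and SOX11 at 16.7 ± 0.262. SOX21 dropped behind SOX3 and SOX9 to 2.66 ± 0.217, a level whose libraries overlapped those of SOX8 at 2.64 ± 0.0856. SOX1 became the lowest at 0.289 ± 0.0347, under SOX10 at 0.530 ± 0.0693.

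Summed over members per kilobase of exon, the SOXB1 and SOXC groups changed places between the media. The SOXB1 sum was 166.1, 175.8 and 171.9 CPM per kilobase in the E8 control replicates and 112, 115 and 115 in the PEG and HS replicates. The SOXC sum was 109, 112 and 111 in E8 control and 131, 137 and 135 in PEG and HS. Thus, per kilobase, SOXB1 exceeded SOXC in each control library and SOXC exceeded SOXB1 in each treated library. This order depends on dividing by exon length, 2512 bases for SOX2 and 9002 for SOX11. In CPM not divided by length, control means were 412, 13.4 and 4.29 for SOX2, SOX3 and SOX1. Those of SOX4, SOX11 and SOX12 were 266, 184 and 167, so SOXC was already the larger group in control. SOX2 made up 164 of the SOXB1 sum of 171 CPM per kilobase in control, and SOX4 the largest part of the SOXC sum. The SOXE sum was small and overlapped between media, with 7.73 ± 0.0326 (SD, n = 3) in E8 control and 7.49 ± 0.317 (SD, n = 3) in PEG and HS, and within it SOX8 rose and SOX10 fell. All 10 members together summed to 305 ± 6.92 in E8 control and 258 ± 4.48 in PEG and HS. These sums over chosen genes were given no test.

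**Figure D3:**
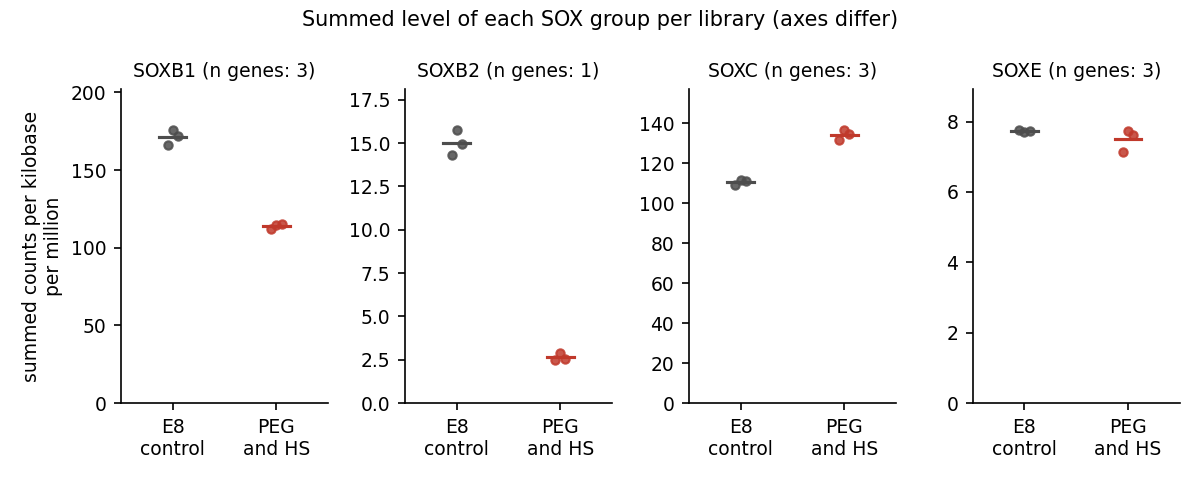
Summed CPM per kilobase of the SOXB1, SOXB2, SOXC and SOXE members in each library (3 in E8 control, grey, and 3 in PEG and HS, red), with bars at the means and a separate axis from 0 in each panel. SOXB1 is lower (112 to 115 against 166.1 to 175.8) and SOXC higher (131 to 137 against 109 to 112) in PEG and HS, and SOXE overlaps.

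Ratios taken within a library do not depend on how libraries are scaled. The log2 ratio of SOX2 to SOX4, per kilobase, was 1.55, 1.62 and 1.58 in the E8 control replicates and 0.50, 0.49 and 0.49 in the PEG and HS replicates, a difference of -1.09. SOX2 to SOX12 moved from a mean log2 ratio of 2.20 ± 0.0368 (SD, n = 3) to 1.44 ± 0.0499 (SD, n = 3). SOX2 to SOX11 moved less, from 3.005 ± 0.0385 to 2.70 ± 0.0278, and SOX2 to SOX3 least, from 4.67 ± 0.00156 to 4.47 ± 0.0753. The ratio to SOX1 was higher with treatment, going from 7.45 ± 0.109 to 8.56 ± 0.191, and so was that to SOX21, from 3.45 ± 0.0293 to 5.36 ± 0.105. None of these 6 ratios overlapped between media. As a share of the 10-gene sum, SOX2 went from 53.8% ± 0.326 to 42.1% ± 0.210, SOX4 from 17.9% ± 0.373 to 30.0% ± 0.158 and SOX21 from 4.92% ± 0.130 to 1.03% ± 0.0711 (SD, n = 3). The share of SOX11 overlapped between media, at 6.70% ± 0.215 in E8 control and 6.46% ± 0.155 in PEG and HS.

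**Figure D4:**
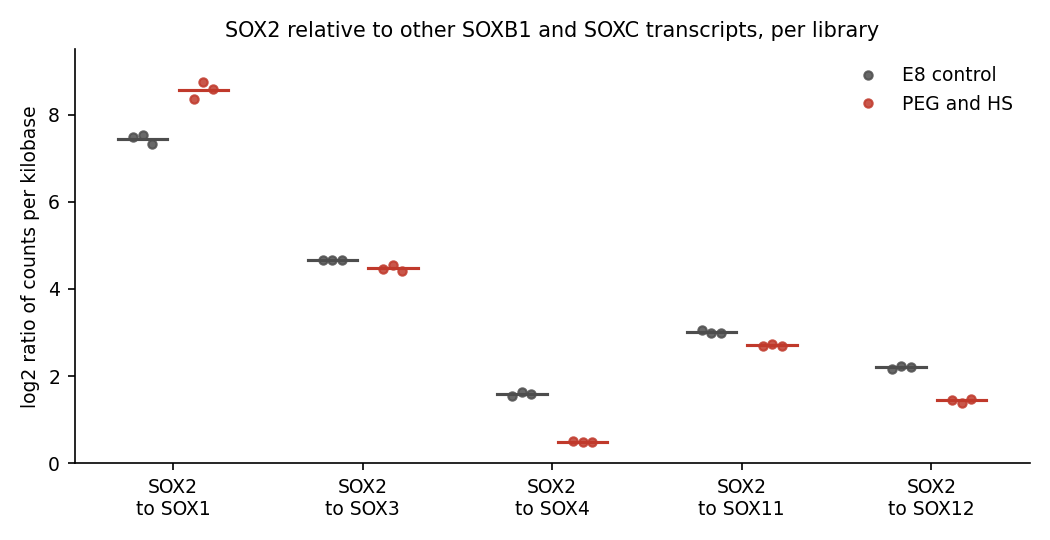
log2 ratio of SOX2 to SOX1, SOX3, SOX4, SOX11 and SOX12, from counts per kilobase, in each library (E8 control grey, PEG and HS red), with bars at the means. The mean ratio to SOX4 is 1.58 in control and 0.49 in treated libraries, and that to SOX1 is 7.45 and 8.56.

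Of the other SOX genes 2 of the 8 tested were called, both lower, a share near the 25.3% called over all genes tested. SOX15, a SOXG gene close to SOXB1 in its HMG box, fell from 8.91 ± 0.342 to 6.96 ± 0.766 CPM (log2 fold change -0.36, edgeR adjusted p of 0.00800). SOX5, a SOXD gene that assists SOX9 in cartilage, fell from 2.97 ± 0.136 to 2.05 ± 0.349 CPM (log2 fold change -0.52, edgeR adjusted p of 0.0252). In DESeq2 and in each of 4 fits with a library left out (PEG and HS replicate 1 or 2, E8 control replicate 1 or 3), a single gene of this list was called. SOX13, another SOXD gene and the most counted of this list, was at 160 ± 6.82 CPM in treated and 152 ± 2.50 CPM in control libraries and was not called (edgeR adjusted p of 0.0957). SOX6, SOX7, SOX14, SOX18 and SOX30 were tested, were not called, and averaged under 1 CPM over the 6 libraries. SOX17, a marker of endoderm, had 1 count in each medium and stood under the filter. The median log2 fold change over the 8 genes tested was -0.05, beside 0.0031 over all genes tested.

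The POU family includes partners of SOX factors on DNA. Among 8 POU genes 5 were called, 3 higher and 2 lower, beside 25.3% of all genes tested. POU5F1, which encodes OCT4, the partner of SOX2 in pluripotent cells, rose while SOX2 fell, from 1635 ± 27.9 to 1922 ± 27.8 CPM. POU3F1, a neural POU factor, rose from 27.5 ± 1.75 to 32.2 ± 1.80 CPM (edgeR adjusted p of 0.00714), and POU2F1 had a log2 fold change of 0.10 (adjusted p of 0.0408). POU3F4, a neural factor also needed in the inner ear, fell from 11.6 ± 0.745 to 8.44 ± 0.448 CPM (edgeR adjusted p of 0.000351). POU4F1, a sensory neuron factor, fell from 1.11 ± 0.397 to 0.540 ± 0.0698 CPM (edgeR adjusted p of 0.0283). Without PEG and HS replicate 1 the list had 3 calls, 2 higher and 1 lower. POU3F1 and POU2F1 are named here after their values were seen. POU2F1 overlapped between media.

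Genes of the neural plate and of neural progenitors, the tissue in which SOXB1 is best known, were mostly lower. Of 31 listed genes, all tested, 21 were called, 19 lower and 2 higher, beside 13.1% lower and 12.2% higher over all genes tested. The median log2 fold change was -0.53, beside 0.0031 over all genes tested. Of the listed genes, 9 averaged under 1 CPM, and the list was chosen with earlier results of these data known. FEZF1, a forebrain repressor, fell from 19.8 ± 0.452 to 3.64 ± 0.311 CPM (log2 fold change -2.45, edgeR adjusted p of 4.67e-12). LHX5 (log2 fold change -2.37), a LIM homeobox gene of the anterior neural plate, and IRX3 (log2 fold change -2.15), a patterning factor of the posterior plate, fell to a like degree. The 2 that rose, named after their values were seen, were SIX6, an eye field gene, from 7.55 ± 0.136 to 13.6 ± 0.771 CPM, and GBX2, a hindbrain and midbrain boundary gene, from 9.58 ± 0.446 to 17.3 ± 1.005 CPM. Summed over the list, the level was 1535 to 1559 CPM in control and 1210 to 1243 CPM in treated libraries. The falls in SOX1, SOX2, SOX3 and SOX21 thus accompanied lower levels of most of these genes, and what part the neural genes had in the SOX differences was not tested.

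In the neural crest list 8 of 18 genes were called, 4 in each direction, beside 25.3% of all genes tested. The median log2 fold change was -0.30, beside 0.0031 over all genes tested, and 8 of the 18 averaged under 1 CPM. Among the lower calls, DLX5, ZIC4 and MSX2 averaged under 1 CPM in both media. TFAP2A, a regulator of crest and surface ectoderm, fell from 6.00 ± 0.230 to 0.603 ± 0.269 CPM (log2 fold change -3.30, edgeR adjusted p of 9.84e-09). EDNRB, an endothelin receptor of crest cells, rose from 9.73 ± 0.607 to 14.3 ± 0.706 CPM, and FOXD3, which is shared by crest and pluripotent cells, from 41.6 ± 0.943 to 51.9 ± 1.91 CPM (edgeR adjusted p of 2.57e-05 and 2.85e-05). Without E8 control replicate 2 the list had 5 calls, 3 higher and 2 lower. Of 14 oligodendrocyte and Schwann cell genes, 13 were tested and 3 called, a share near the 25.3% called over all genes tested. MBP, a myelin protein gene, had a log2 fold change of 0.38, SLC1A3, a glial glutamate transporter, of 0.23, and MYRF, a myelin regulator, of -0.37.

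For neuronal differentiation, 16 of 18 genes were tested and 5 called, 2 higher and 3 lower, beside 25.3% called over all genes tested. STMN2 and MAP2, which encode proteins of the neuronal microtubule system, had log2 fold changes of -0.93 and -0.60 (edgeR adjusted p of 0.00449 and 1.56e-06), and NEUROG1, a proneural factor, was lower from a level under 1 CPM. TAGLN3 rose by 0.67 on the log2 scale and CRMP1 by 0.11. NEUROG1, CRMP1 and TUBB3 are named after their values were seen. TUBB3, a neuronal tubulin gene that SOX11 activates, averaged 237 ± 6.54 CPM in treated and 241 ± 5.89 CPM in control libraries and was not called (edgeR adjusted p of 0.638). Of 8 cartilage genes with SOX9 sites 4 were called, all lower, beside 25.3% called over all genes tested. COL9A1, COL11A2, MATN1 and COMP were not called. HAPLN1, a link protein gene, had a log2 fold change of -0.91, ACAN, which encodes aggrecan, of -0.74, COL9A2 of -0.51 and the type II collagen gene COL2A1, named after its value was seen, of -0.47.

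**Figure D5:**
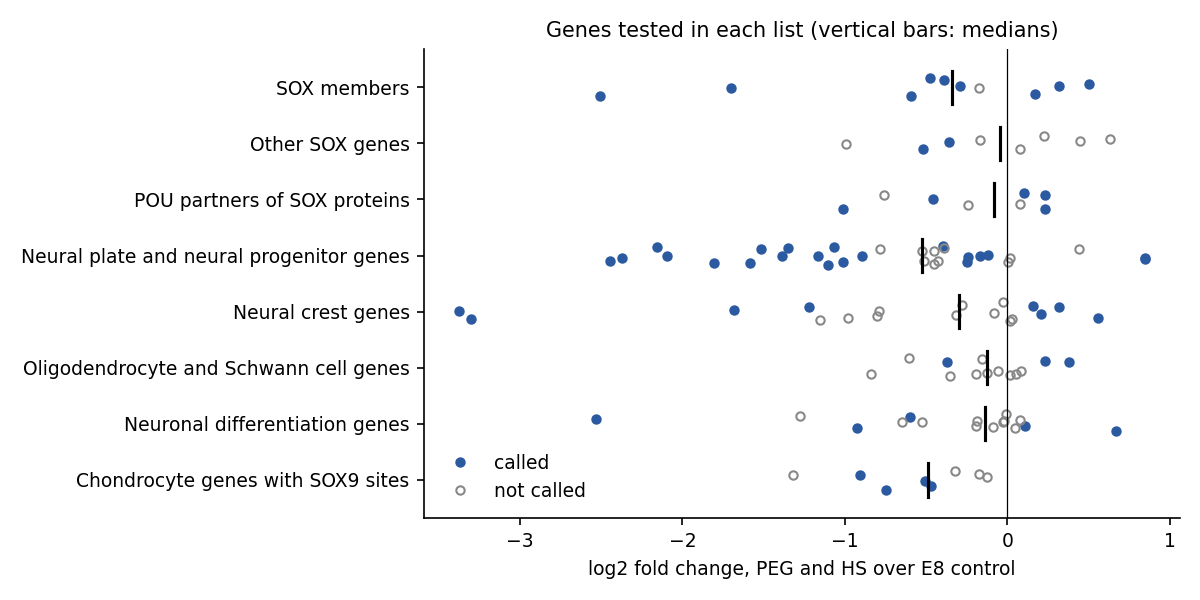
log2 fold change of each tested gene (PEG and HS over E8 control) in the SOX members and the 7 lists, filled where called and open where not, with bars at the medians. The neural plate and progenitor list has its median at -0.53, and the other SOX genes have theirs near 0.

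Markers of other lineages were examined as 3 lists, whose calls stand beside 25.3% called over all genes tested. Mesoderm markers had 3 of 9 tested genes called and summed to 64.4 to 67.7 CPM in treated and 58.1 to 62.3 CPM in control libraries, of which KDR, also expressed in pluripotent cells, was the main part. Endoderm markers summed to 5.19 to 5.56 CPM in treated and 6.46 to 7.27 CPM in control libraries, with 0 of 6 tested genes called by edgeR, DESeq2 or limma-voom and 1 (FOXA2) at an unadjusted p under 0.05 in edgeR. The trophectoderm and amnion markers summed to 31.8 to 38.6 CPM in treated against 69.2 to 80.3 CPM in control libraries, of which IGFBP3 (17.2 ± 2.49 against 45.3 ± 5.78 CPM) was the largest part, with 3 of 7 tested genes called (IGFBP3, TFAP2C and KRT7) and CDX2, GATA3, ISL1 and VTCN1 under 1 CPM in both media. GABRP, the remaining marker of that list, averaged 2.29 ± 0.0996 CPM in treated and 1.69 ± 0.214 CPM in control libraries and was not called (edgeR adjusted p of 0.0816). No marker of the 3 lists was at 0 in all libraries, and their part in the SOX differences was not tested.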

How the data were processed

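Bulk RNA-seq was analysed for 6 libraries of NCRM-1 aggregates, 3 grown in PEG and HS and 3 in E8 control, grouped by the treatment in the sample labels. Libraries were of the stranded mRNA type. Reads were trimmed with Trim Galore (0.6.7) and aligned to GRCh38 with STAR (2.6.1), and the authors deposited the result as raw counts per gene. The counting tool, its use of strand and multi-mapped reads, and the annotation release are not given in the sources used here. Of 19977 identifiers, 19916 matched GENCODE 44, which gave symbols, coordinates and exon lengths. Promoters are from RefSeq (GRCh38.p14), and 6 of the 10 SOX genes had one.

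Testing was limited to genes whose counts summed to 10 or more, in edgeR 4.0.16 (R 4.3.3) with TMM factors and the quasi-likelihood test, no covariate, and Benjamini-Hochberg adjustment, at 0.05. Intervals use a standard error of the absolute log2 fold change over the root of F, and cover the spread between these libraries only. The study's methods name DESeq2, used here (1.42.0) as an alternative, as were limma-voom (limma 3.58.1), other normalizations and filters, GC content and length offsets (16473 genes), the replicate block, left-out libraries and a 1.5-fold null. No pair of replicates was within sampling noise (chi-square over its degrees of freedom, 2.50 to 3.38), so none was treated as the same library deposited again. The naming rule took all 10 SOX genes and up to 3 genes per list (called, not overlapping, at least 1 CPM in the higher group, by size of change). Other list genes and the lineage markers were named after their values were seen. The members and lists were chosen with earlier results of these data known. The scripts were tested on simulated data.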

Additional observations from a re-analysis of the deposited data

How the results depend on the processing

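Of the 10 SOX genes, 8 (SOX1, SOX2, SOX3, SOX21, SOX4, SOX11, SOX12 and SOX8) held an adjusted p under 0.05 in the same direction in all 16 alternatives other than the 1.5-fold null, and no SOX gene changed direction in any alternative. Tested against a 1.5-fold change, 264 genes were called in place of 4173 (30 higher and 234 lower) and 2 SOX genes in place of 9. The fold changes are by construction those of the report, and the calls of SOX2 (-0.59), SOX3 (-0.39), SOX4 (0.50), SOX11 (-0.29), SOX12 (0.17), SOX8 (0.32) and SOX10 (-0.48) were lost. The list calls then were 0 for other SOX genes, POU genes, oligodendrocyte and Schwann cell genes and cartilage genes, 10 for neural plate genes, and 1 each for neural crest and neuronal genes. For the lists at 0, edgeR's test against no change called 2, 5, 3 and 4 genes. SOX9 was not called in the report but was with upper quartile normalization (-0.19), no filter (-0.18), a filter of 1 CPM in 3 libraries (-0.19) and GC content and length offsets (-0.17), and with left-out libraries its log2 fold change ranged from -0.22 to -0.13. SOX10 lost its call with DESeq2 (-0.48) and ranged from -0.58 to -0.41 with libraries left out. DESeq2 called 1 other SOX gene and 5 neural crest genes, and the 1 CPM filter, which tests 10 of the 18 crest genes, also called 5. The cause of these moves was not tested. With libraries left out, calls ranged from 1 to 3 for other SOX genes, 3 to 4 for POU genes and 5 to 7 for crest genes. The summed levels moved by less than the spread between replicates in every alternative tried for them. The length of the longest transcript could not move the SOXB1, SOXB2 or SOXC sums, since it equals the exon length for each of their genes. Library size alone could move the sums little, since the TMM factors were 0.994 to 1.006.

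No pairing by the labels' replicate numbers was seen across genes, where deviations of same-numbered libraries correlated at 0.0052, 0.0137 and 0.0039. Not every library correlated best with its own number. A correlation over all genes cannot exclude pairing in a part of them. With the replicate block 4444 genes in place of 4173, and the same number of SOX genes, 9, were called. Depth limits SOX1 and SOX10 most, which had 33 to 169 counts per library.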

Other observations

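For SOX1, SOX2, SOX3 and SOX21, the 3 genes whose log2 CPM followed them most closely over the 6 libraries were sought among 11375 genes with a mean of at least 5 CPM. The libraries fall into 2 groups that differ in medium, so such likeness mainly reads the step between media and is a description only. Nearest to SOX21 were ID4, an inhibitor of basic helix-loop-helix factors, which went from 36.9 to 8.47 CPM, CITED2, a transcriptional coregulator, from 98.8 to 40.7 CPM, and TTYH1, a membrane protein of neural stem cells, from 58.3 to 26.6 CPM (Pearson's r of 0.9998, 0.9997 and 0.9996). Nearest to SOX2 were OLIG3, MAP1A and TP53I11, all lower in PEG and HS, with log2 fold changes of -1.62, -0.80 and -0.95. SOX1 was followed by BNC2, TMEM64 and STOM, and SOX3 by SENP2, NDUFV2 and TMED1, where the log2 fold changes ranged from -1.46 (TMEM64) to -0.13 (NDUFV2).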
